A study of Mus musculus with 3 samples.

Results

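The genes described here encode the mitochondrial respiratory chain of the mouse. They are the nuclear genes whose symbols begin with Nduf, Sdha, Sdhb, Sdhc, Sdhd, Uqcr, Cox4 to Cox8 or Atp5, and the mitochondrial genes whose symbols begin with mt-, with pseudogenes and mitochondrial tRNA and rRNA genes left out. This rule took 110 of the 32285 genes measured, of which 97 are nuclear and 13 lie on the mitochondrial chromosome. By symbol, the nuclear genes hold 38 subunits of complex I, 4 of complex II, 8 of complex III, 18 of complex IV and 17 of ATP synthase, and 12 assembly factors (Ndufaf and Sdhaf genes). The rule uses names alone and no measured value.

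The respiratory chain sits in the inner mitochondrial membrane. Complexes I and II (NADH and succinate dehydrogenase) pass electrons to ubiquinone, complex III passes them on to cytochrome c, and complex IV reduces oxygen; complexes I, III and IV pump protons, and ATP synthase uses that gradient to make ATP. Most subunits come from nuclear genes and are imported, while the mitochondrial chromosome, transcribed as long precursors and cut, encodes core subunits of complexes I, III, IV and ATP synthase and none of complex II. Resting lymphocytes are known to keep few mitochondria, and dividing and antibody-secreting cells to build more.

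Droplet single-cell RNA sequencing with 3' chemistry was done on mesenteric lymph node, which drains the gut, in 3 libraries, 1 per feeding. Animals were given by mouth, for 4 weeks, 1 µg of the egg protein ovalbumin inside lyso-phosphatidylserine nanoparticles (LysoPS-OVA), 1 µg of ovalbumin without a carrier (Free OVA), or 5 mM citrate buffer, which the labels also call untreated. Each library pooled the nodes of 6 animals, so no spread between animals can be seen, and no test between feedings was possible; intervals between feedings are 95% intervals of counting error only. Strain, age and sex of the animals are not in the labels used here.

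The deposited matrices held 20873 barcodes in LysoPS-OVA, 28660 in Free OVA and 28927 in citrate buffer, with total counts of unique molecular identifiers (UMIs) of 84089686, 81559237 and 96616683 in the same order. After barcodes with under 300 genes or over 10% mitochondrial UMIs were left out, 17323, 23331 and 26348 remained, of which 56.94%, 40.71% and 39.94% passed a gate on cell type markers. Barcodes low in Malat1, a nuclear RNA, made up 20.54% of LysoPS-OVA, 50.29% of Free OVA and 25.28% of citrate buffer, and barcodes low in ribosomal protein transcripts 10.57%, 9.417% and 20.98%. The libraries shared 166 (LysoPS-OVA and citrate buffer), 194 (Free OVA and citrate buffer) and 170 (LysoPS-OVA and Free OVA) barcode sequences. The labels call the cells intestinal, but the leukocyte gene Ptprc stood at 1319 to 1818 CPM (UMIs scaled to the total of the library or gate) and of 5 gut epithelial genes read Vil1, Krt8, Krt20 and Fabp2 were under 1 CPM and Epcam was at 3.675, 5.642 and 3.564 CPM.

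Cell types were gated by at least 3 distinct marker genes of their own and, apart from the cases below, at most 1 of another lineage. Plasma cells could carry B markers if their plasma marker UMIs were more, and B cells under 3 plasma markers. Plasmacytoid cells could carry plasma markers. Between myeloid types the list with the largest share of markers seen was taken. CD4 T barcodes had a Cd4 UMI and no Cd8a or Cd8b1 UMI, and CD8 T barcodes the reverse. Non-cycling B cells held no cycling marker. The B cell gate held 5259 barcodes in LysoPS-OVA, 5120 in Free OVA and 5507 in citrate buffer, the CD4 T gate 1424, 729 and 1063, the CD8 T gate 570, 299 and 776, and the migratory dendritic gate 739, 1851 and 994. Smaller gates held 47 to 66 plasma cell barcodes per library, 64 to 256 cycling B, 47 to 56 germinal centre B, 133 to 273 regulatory T and 33 to 82 macrophage barcodes. Genes outside the marker lists were read as a check on the names: Ighd was at 1091 to 1311 CPM in B, Lef1 at 1503 to 1679 CPM in CD4 T, Ccl5 at 7957 to 12090 CPM in migratory dendritic and Lyz2 at 13050 to 16330 CPM in macrophage barcodes. Lef1 was also at 1282 to 1563 CPM in CD8 T, and Itgax only at 3.765 to 8.566 CPM in migratory dendritic barcodes. Plasma barcodes had Igha at 5264 to 18220 CPM and Prdm1 at 98.87 to 111.2 CPM. They also had the B marker Ms4a1 at 131.7 to 253.1 CPM. The gates differed in their share of Malat1-low barcodes: 87.96%, 90.65% and 81.69% of migratory dendritic barcodes in LysoPS-OVA, Free OVA and citrate buffer, against 6.351%, 24.45% and 15.58% of B barcodes.

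The promoters below are shown because these nuclear genes lie at the ends of the difference between cycling and non-cycling B cells described further on. Atp5j, Cox5b and Atp5k had the largest differences and Ndufs4, Cox7a2l and Ndufa3 the smallest, among genes that passed the test, had at least 50 CPM in every cycling library and had a promoter in the table. Each line gives the 250 bases before a gene start listed in RefSeq (GRCm38.p6), 5′ to 3′ on the strand of the gene, with matches to a searched motif in capitals. They lie at chr16:84835626-84835875 (minus strand), chr1:36691237-36691486 (plus strand) and chr5:108434400-108434649 (minus strand), and at chr13:114388095-114388344 (minus strand), chr17:83514334-83514583 (minus strand) and chr7:3617123-3617372 (plus strand). The windows of Cox5b, Atp5k and Ndufs4 reach past the outermost start in GENCODE, and that of Cox7a2l lies inside the gene as GENCODE places it, at chr17:83501918-83517330.
Atp5j: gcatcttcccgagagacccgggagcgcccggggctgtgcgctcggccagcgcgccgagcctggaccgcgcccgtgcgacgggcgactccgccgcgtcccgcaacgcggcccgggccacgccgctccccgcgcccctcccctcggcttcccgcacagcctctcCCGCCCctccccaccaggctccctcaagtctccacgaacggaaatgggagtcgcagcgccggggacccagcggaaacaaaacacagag
Cox5b: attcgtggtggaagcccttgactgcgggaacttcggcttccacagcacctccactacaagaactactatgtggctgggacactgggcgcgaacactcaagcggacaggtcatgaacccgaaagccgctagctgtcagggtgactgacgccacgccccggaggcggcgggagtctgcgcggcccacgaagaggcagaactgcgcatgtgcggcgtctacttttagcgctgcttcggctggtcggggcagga
Atp5k: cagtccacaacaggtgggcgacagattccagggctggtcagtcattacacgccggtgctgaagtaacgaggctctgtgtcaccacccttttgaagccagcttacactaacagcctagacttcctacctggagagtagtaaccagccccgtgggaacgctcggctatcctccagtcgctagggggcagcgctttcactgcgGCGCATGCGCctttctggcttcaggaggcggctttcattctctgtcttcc
Ndufs4: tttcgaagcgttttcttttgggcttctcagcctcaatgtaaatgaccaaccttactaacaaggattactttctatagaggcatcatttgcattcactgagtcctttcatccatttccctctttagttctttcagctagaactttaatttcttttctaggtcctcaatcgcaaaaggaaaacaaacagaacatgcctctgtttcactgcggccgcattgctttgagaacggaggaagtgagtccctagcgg
Cox7a2l: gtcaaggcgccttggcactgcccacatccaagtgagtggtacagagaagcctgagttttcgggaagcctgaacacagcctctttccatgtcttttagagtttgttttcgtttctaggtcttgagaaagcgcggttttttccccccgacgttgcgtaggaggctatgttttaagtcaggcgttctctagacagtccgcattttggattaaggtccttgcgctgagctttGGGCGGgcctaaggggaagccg
Ndufa3: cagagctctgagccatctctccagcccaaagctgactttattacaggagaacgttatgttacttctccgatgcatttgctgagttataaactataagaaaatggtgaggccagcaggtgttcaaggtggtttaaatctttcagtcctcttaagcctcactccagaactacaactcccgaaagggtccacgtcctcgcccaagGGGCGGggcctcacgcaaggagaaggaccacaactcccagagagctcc

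In these windows Atp5j, Cox7a2l and Ndufa3 hold the Sp1 letters GGGCGG, Atp5k holds overlapping matches to the NRF1 letters GCGCATGCG on both strands, and Cox5b and Ndufs4 hold none of the motifs searched. GC content ran from 42% in the Ndufs4 window to 74.8% in the Atp5j window. Promoters were found for 79 of the 97 nuclear genes and searched on both strands for 5 motifs. The NRF1 letters were in 7 of the 79 (8.861%), against 1.643% of 27025 genes. The ETS letters CCGGAAG were in 16 (20.25%), against 7.826%, and the Sp1 letters in 34 (43.04%), against 35.36%. The ERR letters AAGGTCA were in 5 (6.329%), against 4.703%, and the YY1 letters AAGATGGCG in 1 (1.266%), against 0.7105%. The nuclear genes' windows were richer in GC (median 57.2%) than all windows (52.4%); within the middle range of the nuclear genes, 53.0% to 62.0% GC, the NRF1 letters were in 7.692% of them and 2.795% of all genes, the ETS letters in 12.82% and 11.48%, and the Sp1 letters in 43.59% and 47.34%. These are matches of letters, and no binding was measured.

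Nuclear and mitochondrial transcripts ranked the cell types differently. Summed over the 97 nuclear genes, the chain took 3.022% of UMIs in LysoPS-OVA, 2.741% in Free OVA and 2.812% in citrate buffer in cycling B cells, against 1.1%, 1.063% and 1.149% in non-cycling B cells. Plasma cells (2.881%, 2.401% and 2.415%), germinal centre B cells (2.663%, 2.481% and 2.613%), macrophages (2.728%, 2.33% and 2.237%) and migratory dendritic cells (2.099%, 2.11% and 2.264%) were all above the T cells. CD8 T cells had 1.368%, 1.348% and 1.492%, CD4 T cells 1.351%, 1.299% and 1.406%, and regulatory T cells 1.334%, 1.229% and 1.34%. The CD4 T range overlaps each of the others, while every CD8 T value lies above every regulatory T value. In every library the order of the T cells above non-cycling B cells held.

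The 13 mitochondrial genes were highest in non-cycling B cells. They took 4.211% of UMIs in LysoPS-OVA, 3.196% in Free OVA and 4.049% in citrate buffer there, and 2.25%, 1.992% and 2.502% in migratory dendritic cells. Plasma cells had 2.68%, 2.09% and 2.819% and cycling B cells 3.336%, 2.086% and 2.751%. CD4 T cells stood between non-cycling B and migratory dendritic cells at 3.559%, 2.453% and 2.981%, and CD8 T cells at 3.712%, 2.504% and 3.188%. Germinal centre B cells, high in the nuclear sum, had 4.132%, 2.82% and 3.158%, above CD4 T cells in every library. In all of these gates the Free OVA library was the lowest of the 3. Mitochondrial shares also rest on the limit of 10%, which removed 17.25%, 13.83% and 10.86% of B-gated barcodes in LysoPS-OVA, Free OVA and citrate buffer and 1.589%, 0.9511% and 2.656% of CD4 T-gated ones.

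**Figure D1:**
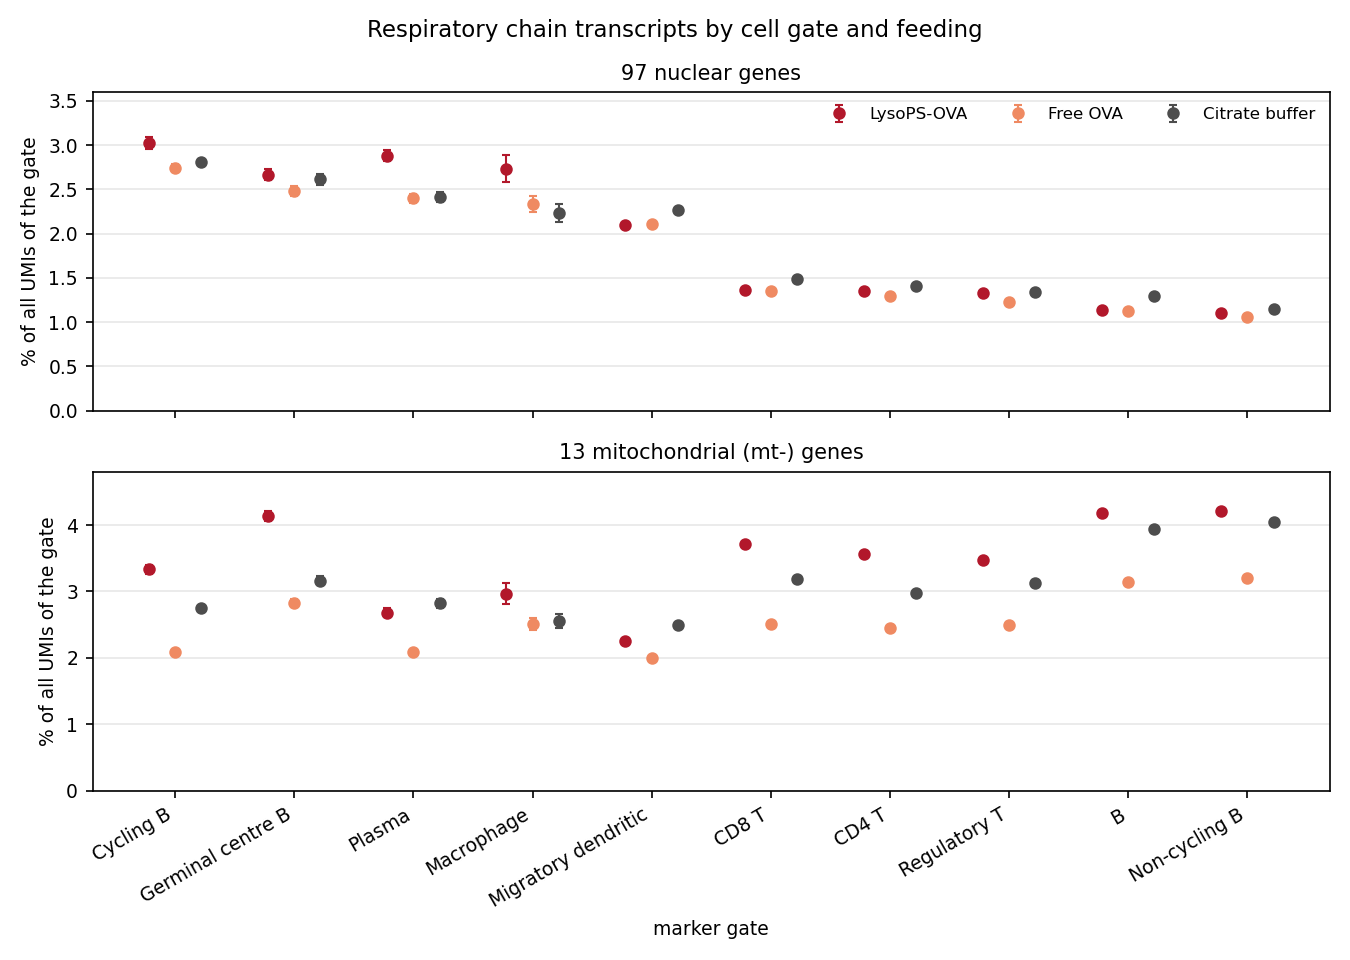
Summed level of the 97 nuclear (top) and 13 mitochondrial (bottom) respiratory chain genes, as a percent of UMIs, in each marker-gated cell type and library, with 1 point per library and its 95% counting interval. Nuclear genes lay between 2.741% and 3.022% in cycling B cells and between 1.063% and 1.149% in non-cycling B cells, while mitochondrial genes lay between 1.992% and 2.502% in migratory dendritic cells and between 3.196% and 4.211% in non-cycling B cells.

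Within the nuclear genes, levels in CPM are counts of 3' tags and are not scaled to length. In B cells the ATP synthase subunit Atp5e was the top gene, at 568.2 CPM in LysoPS-OVA, 559.2 in Free OVA and 640.3 in citrate buffer. The top gene of complex IV was Cox4i1 at 480.4, 471.1 and 546.3 CPM, and that of complex III the hinge subunit Uqcrh at 415.9, 423.9 and 438.4 CPM. Among Nduf subunits it was Ndufa4, first assigned to complex I and now to complex IV, at 233.5, 211.2 and 268.2 CPM. The top gene of complex II was the flavoprotein subunit Sdha at 88.64, 80.37 and 77.35 CPM, and the top assembly factor was Ndufaf8 at 57.59, 54.52 and 61.73 CPM. Among mitochondrial genes mt-Co3, a core subunit of complex IV, was highest in B cells at 9557, 6614 and 9361 CPM. All 13 mitochondrial genes, apart from mt-Nd6, lie on the same strand; mt-Atp8 and mt-Atp6 overlap by 43 bases and mt-Nd4l and mt-Nd4 by 7, so reads there can belong to either.

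The nuclear level also followed the Malat1 and ribosomal content of barcodes within a gate. In B cells the nuclear sum was 2.475%, 2.142% and 2.645% of UMIs in Malat1-low barcodes of LysoPS-OVA, Free OVA and citrate buffer. It was 1.161%, 1.08% and 1.275% in barcodes that were neither Malat1-low nor ribosome-low, and 0.365%, 0.3564% and 0.5263% in ribosome-low barcodes. The mitochondrial sum ran the other way, at 3.38%, 2.207% and 2.577% in Malat1-low, 3.957%, 2.903% and 3.584% in neither, and 6.514%, 6.0% and 6.102% in ribosome-low B barcodes. The nuclear sums of the 3 strata did not overlap over the libraries. The mitochondrial sums of Malat1-low barcodes and of neither did overlap, although each library on its own kept that order. These strata are cut from measured RNA content and are not cell types.

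**Figure D2:**
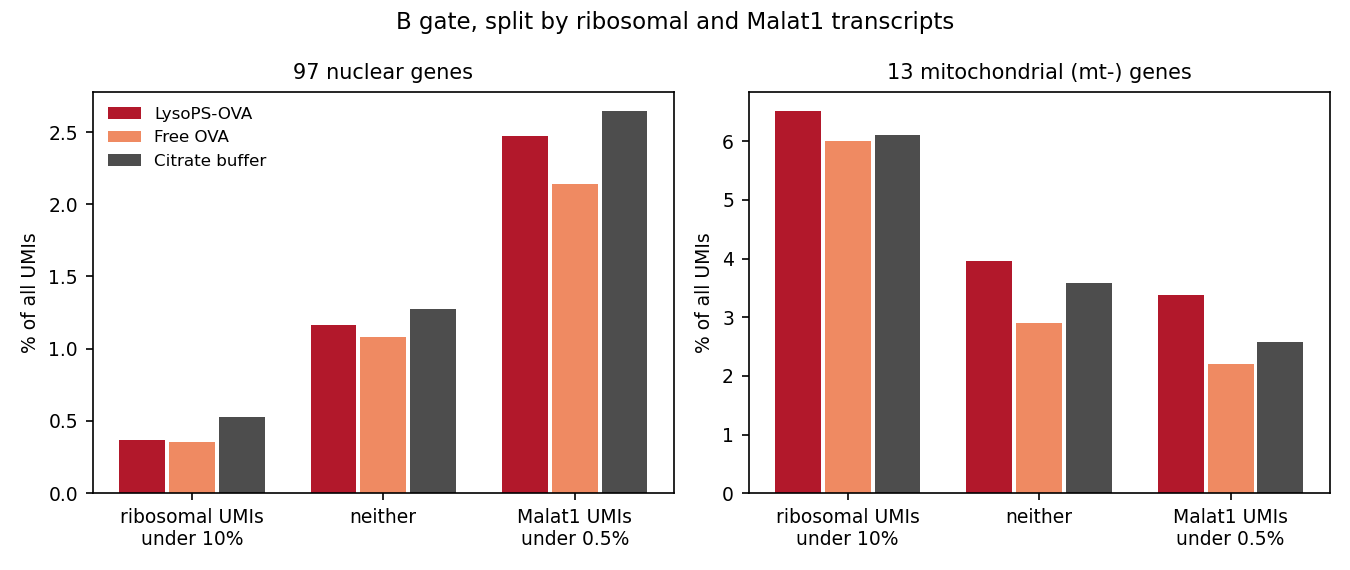
Summed nuclear and mitochondrial respiratory chain levels (percent of UMIs) in B-gated barcodes, split into Malat1-low, neither and ribosome-low barcodes, by library. The nuclear sum lies between 2.142% and 2.645% in Malat1-low and between 0.3564% and 0.5263% in ribosome-low barcodes, and the mitochondrial sum is highest, 6.0% to 6.514%, in ribosome-low barcodes.

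The next comparisons set cell types against each other across the 3 libraries, with the library as a block, by edgeR's quasi-likelihood test with Benjamini-Hochberg adjustment over all genes tested and a threshold of 0.05. P-values rest on the spread between these 3 libraries, which were fed differently, and on no spread between animals. The test pools that spread across genes, so a p-value does not measure the spread of its own gene alone. Very small p-values lean on this pooling. Log2 fold changes use edgeR's TMM scaling, and the median of all genes tested is given beside each list, since scaling by total UMIs alone moves it to -0.58 for cycling against non-cycling B, -0.55 for plasma against B and -0.86 for migratory dendritic against B.

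Cycling B cells had more transcript of nearly all nuclear respiratory chain genes than non-cycling B cells. Of 91 nuclear genes tested, 83 rose and 0 fell, with a median log2 fold change of 1.73 against -0.15 for all genes, of which 49.5% were called either way, 25.1% higher and 24.4% lower. All 17 ATP synthase and all 8 complex III subunits rose, as did 36 of 37 complex I, 12 of 13 complex IV and 3 of 4 complex II subunits. Of 12 assembly factors 7 were higher, with a median of 0.78. Cycling markers chose these cells, and the cycling B gate was 87.5%, 81.03% and 73.05% Malat1-low in LysoPS-OVA, Free OVA and citrate buffer. Among Malat1-low barcodes alone, 61 of 84 nuclear genes were higher, 2 were lower and the median was 0.60 (all genes -0.07, with 22.9% higher and 22.8% lower).

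Atp5j, a peripheral stalk subunit of ATP synthase, stood at 821.0 CPM in LysoPS-OVA, 660.9 in Free OVA and 692.7 in citrate buffer in cycling B cells, against 170.3, 151.5 and 168.5 CPM in non-cycling B cells. The groups did not overlap, and the log2 fold change was 2.57 (SE 0.109, adjusted p = 3.29e-119) and 1.20 within Malat1-low barcodes (adjusted p = 6.2e-19). Cox5b of complex IV had 690.2, 597.7 and 508.5 CPM in cycling cells against 144.7, 144.1 and 145.6 CPM (log2 fold change 2.46, 0.97 within Malat1-low barcodes). Atp5k, a small ATP synthase subunit, had 497.7, 444.2 and 412.4 CPM against 113.8, 112.7 and 113.7 CPM (2.41, and 1.02). Atp5j, Cox5b and Atp5k are the first promoters printed above. The muscle-type isoform Cox7a1 had a log2 fold change of 3.49 (SE 0.892, adjusted p = 0.00031), on low levels of 10.9, 3.61 and 5.0 CPM against 0.53, 0.57 and 0.86 CPM.

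At the other end of the range, the complex I subunit Ndufs4 had 141.7, 131.8 and 132.1 CPM in cycling cells against 132.1, 129.8 and 146.1 CPM in non-cycling cells, levels that overlap. Its log2 fold change of 0.40 (SE 0.142, adjusted p = 0.0113) rests on the TMM scaling and was -0.03 when scaled by total UMIs (adjusted p = 0.869). The assembly factors Sdhaf1 (0.54) and Sdhaf2 (0.70) were likewise called under TMM and not under total UMIs (0.10 and 0.27). Cox7a2l, which helps to join complexes III and IV, had a log2 fold change of 0.86 (adjusted p = 4.44e-13), and of -0.54 within Malat1-low barcodes (adjusted p = 0.000126). Among the printed promoters Ndufa3, a complex I subunit, had 178.0, 140.9 and 126.1 CPM against 104.9, 104.4 and 95.17 CPM (0.94, adjusted p = 3.73e-10).

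No mitochondrial gene rose in cycling B cells. Of 13, 0 were higher and 2 were lower, with a median of -0.11 against -0.15 for all genes. The 2 were a smaller share than the 24.4% of all genes called lower. Without the block 0 were lower (24.7% of all genes), within Malat1-low barcodes 10 (22.8%), and scaled by total UMIs all 13 (38.7%). Leaving out the Free OVA library gave 0 lower (17.5% of all genes) and leaving out the citrate buffer library gave 4 (18.5%). The lower pair was mt-Nd2 (1714.7, 1117.8 and 1515.5 CPM in cycling against 2629.9, 1953.2 and 2435.3 CPM in non-cycling cells, log2 fold change -0.27, adjusted p = 0.00219) and mt-Nd5 (-0.28, adjusted p = 0.0388), both complex I subunits. Of the other lists, 76 of 78 mitochondrial ribosomal protein genes and 11 of 11 carrier and import genes were higher, as were 11 of 13 glycolysis genes and 79 of 87 cytosolic ribosomal protein genes. Of 10 genes for expression of mitochondrial DNA, 2 were higher and 2 lower.

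Plasma cells also had more transcript of most nuclear genes than B cells, on few barcodes. Of 90 nuclear genes 75 rose and 0 fell (median 1.32, all genes -0.31, with 33.1% of all genes called either way, 15% higher and 18.1% lower), including all 17 ATP synthase, all 8 complex III and 34 of 37 complex I subunits, and 3 of 12 assembly factors. The complex I subunit Ndufa1 had 261.0, 357.0 and 254.3 CPM in plasma cells against 88.04, 87.63 and 85.89 CPM in B cells (log2 fold change 1.96, SE 0.227, adjusted p = 1.28e-13). Uqcr11 of complex III (1.94), Ndufa4 (1.93) and Atp5k (1.90) followed, and the smallest changes that passed were in Ndufa3 (0.65), Ndufb4 (0.65), Ndufaf8 (0.73) and Uqcrh (0.78). Plasma barcodes were 82.98%, 87.88% and 73.02% Malat1-low, and 57.45%, 30.3% and 42.86% held at least 3 cycling markers in LysoPS-OVA, Free OVA and citrate buffer. Within Malat1-low barcodes 7 of 85 nuclear genes were higher and 1 lower (median 0.28, all genes -0.04), near the shares of all genes there, 6.24% higher and 6.58% lower, with Uqcr11 at 0.59 (adjusted p = 0.0168) and Ndufa1 at 0.52 (adjusted p = 0.0897). Of the mitochondrial genes mt-Nd2 (-0.72, adjusted p = 0.00131) and mt-Atp8 (-0.88, adjusted p = 0.0385) were lower and none was higher. These 2 of 13 were a smaller share than the 18.1% of all genes called lower. With no limit on mitochondrial UMIs 0 were called (mt-Nd2 -0.36, adjusted p = 0.3, and mt-Atp8 -0.49, adjusted p = 0.245). In Malat1-low barcodes 7 were lower (6.58% of all genes) and scaled by total UMIs 9 (24%). Leaving out the LysoPS-OVA library gave 1 (12.4%), Free OVA 0 (10.3%) and citrate buffer 3 (17.2%).

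Migratory dendritic cells had 78 of 91 nuclear genes higher and 4 lower than B cells (median 1.31, all genes -0.17, with 62.4% of all genes called either way, 29.8% higher and 32.6% lower). All 13 complex IV, 17 ATP synthase and 8 complex III genes tested rose, and 33 of 37 complex I genes. Scaled by total UMIs the nuclear median was 0.63 (all genes -0.86, with 17.4% higher and 52.6% lower). CPM is scaled by total UMIs, so the levels below of genes that rose differ by less than their TMM log2 fold changes. Cox5a of complex IV had 1003 CPM in LysoPS-OVA, 967.7 in Free OVA and 946.7 in citrate buffer in dendritic cells, against 183.2, 174.0 and 232.3 CPM in B cells (log2 fold change 3.0, SE 0.196, adjusted p = 1.31e-16). The groups did not overlap. Ndufv2, an iron-sulfur subunit of complex I, had 368.4, 309.5 and 395.4 CPM against 79.9, 74.57 and 93.92 CPM (2.79), and Cox7a1 reached 2.84 at no more than 5.38 CPM.

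Of the 12 assembly factors 5 were higher and 4 lower in migratory dendritic than in B cells. Of all genes 29.8% were higher and 32.6% lower, so the lower count was near the share of all genes. Sdhaf1, which helps to insert iron-sulfur clusters into complex II, had 163.3, 183.2 and 157.6 CPM in migratory dendritic cells against 36.62, 29.68 and 35.36 CPM in B cells (log2 fold change 3.0, SE 0.184, adjusted p = 1.82e-17). Ndufaf4, a complex I assembly factor, had 6.19, 7.18 and 15.6 CPM against 45.5, 38.04 and 38.25 CPM (-1.38, adjusted p = 3.04e-06). Ndufaf6 (-1.49), Ndufaf7 (-1.12) and Sdhaf3 (-0.93) were the others that fell.

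Most of the dendritic difference was not seen among Malat1-low barcodes of both gates. There 21 of 89 nuclear genes were higher and 24 lower, with a median of -0.02 against -0.04 for all genes, of which 24.9% were higher and 25.7% lower, so that the nuclear counts were near the share of all genes. Sdhaf1 (2.45, adjusted p = 1.9e-20), Ndufv2 (1.51, adjusted p = 9.54e-15) and Cox5a (1.32, adjusted p = 3.56e-13) kept their direction and call, as did Ndufaf6 (-1.90), Ndufaf4 (-1.28) and Ndufaf7 (-1.0). In barcodes neither Malat1-low nor ribosome-low, 37 of 89 nuclear genes were higher and 3 lower (median 0.50, all genes -0.29, with 11.1% higher and 10.5% lower), with Sdhaf1 at 2.07 and Cox5a at 2.31, and Ndufaf6 and Ndufaf7 were no longer called (adjusted p = 0.159 and 0.376). Of the mitochondrial genes 6 fell and 0 rose (median -0.28), among them mt-Nd2 with 777.8, 796.6 and 1067.2 CPM in dendritic against 2605.7, 1911.6 and 2363.3 CPM in B cells (-0.70, adjusted p = 0.00171). The count was 0 in barcodes neither Malat1-low nor ribosome-low, where 10.5% of all genes were lower. Scaled by total UMIs it was 13, where 52.6% of all genes were lower and their median was -0.86. Without the LysoPS-OVA library it was 1 (28.2% of all genes lower).

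**Figure D3:**
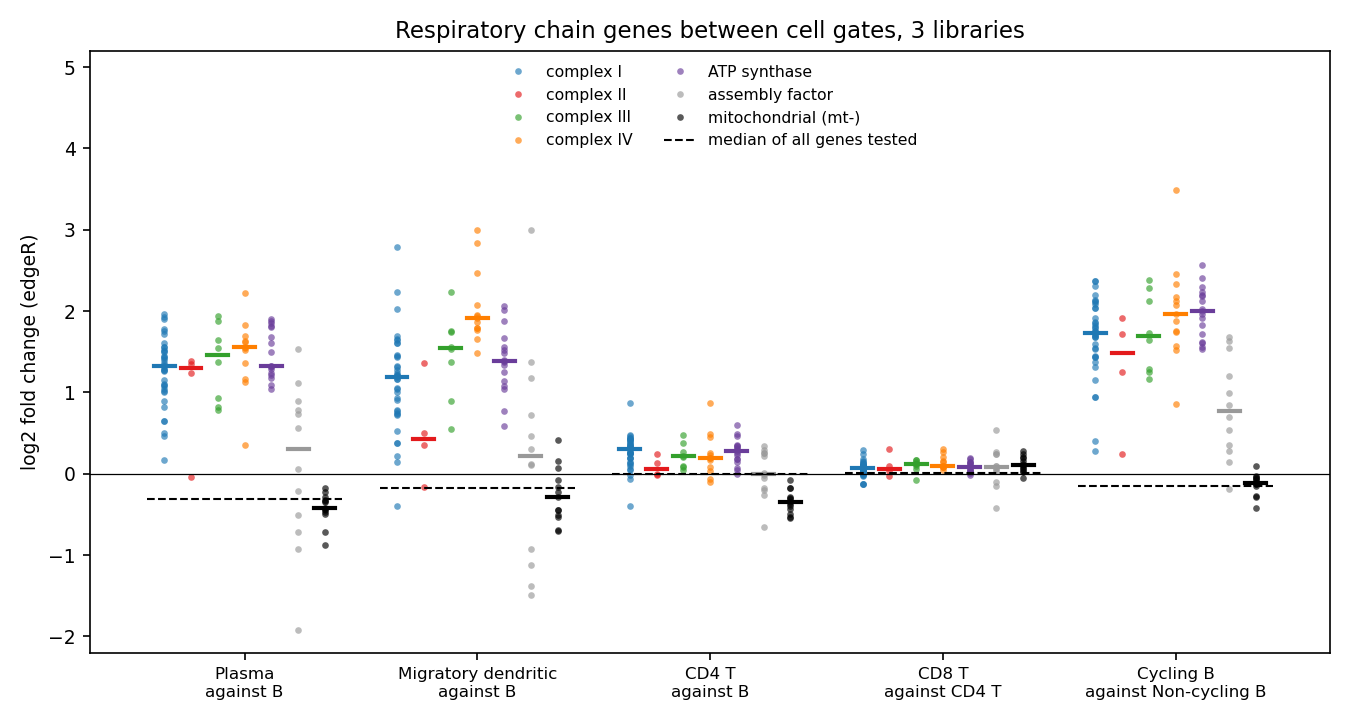
Log2 fold changes (edgeR, TMM scaling) of each respiratory chain gene tested in the 5 cell type comparisons, 1 point per gene, by complex. Bars are medians and the dashed line is the median of all genes. Nuclear medians are 1.73 in cycling against non-cycling B, 1.32 in plasma against B, 1.31 in migratory dendritic against B, 0.24 in CD4 T against B and 0.09 in CD8 T against CD4 T; mitochondrial medians lie between -0.42 and 0.11.

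CD4 T cells had more of many nuclear genes and less of most mitochondrial genes than B cells, by smaller amounts. Of 90 nuclear genes 48 rose and 3 fell (median 0.24, all genes 0), where 50.7% of all genes were called either way, 25.3% higher and 25.4% lower. Leaving out the Free OVA library gave 19 of 90 higher (all genes 18.2%) and leaving out LysoPS-OVA 21 of 90 (all genes 18%), both near the share of all genes. Leaving out citrate buffer gave 60 of 91 (all genes 28.1%), and DESeq2 30 of 90 (all genes 18.1%). Complex I held 25 of the 48, and ATP synthase 11. Ndufv3 of complex I led with 132.0, 121.8 and 160.8 CPM in CD4 T cells against 70.68, 69.68 and 94.09 CPM in B cells (0.87, SE 0.0703, adjusted p = 2.52e-05), followed by Atp5h (0.60), Cox7a2l (0.49) and Atp5j2 (0.49). Sdhaf3 (-0.65), Ndufs8 (-0.39) and Sdhaf2 (-0.26) fell. Of the 13 mitochondrial genes 10 fell and 0 rose (median -0.35). Without the Free OVA library 3 were lower (19% of all genes) and without the block 4 (21.5%). The complex I subunit mt-Nd1 had 2195.8, 1584.7 and 1914.1 CPM in CD4 T cells against 3121.8, 2316.8 and 3084.5 CPM in B cells (-0.54, adjusted p = 0.00136), and mt-Nd3 (-0.53) and mt-Nd4l (-0.49) came next. Among Malat1-low barcodes, 31 to 36 CD4 T barcodes per library, 0 nuclear and 0 mitochondrial genes were called, where 3.85% of all genes were higher and 4% lower.

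CD8 and CD4 T cells lay close together. Of 89 nuclear genes 13 were higher and 1 was lower in CD8 T cells (median 0.09, all genes 0.01), where 16.8% of all genes were called either way, 9.05% higher and 7.77% lower. Cox8a, a small complex IV subunit, had 450.6, 478.4 and 485.4 CPM in CD8 against 388.7, 380.3 and 404.5 CPM in CD4 T cells (0.31, SE 0.045, adjusted p = 8.21e-09). Cox5a (0.27), Ndufaf4 (0.27) and Ndufa10 (0.24) followed, and Sdhaf1 was lower (-0.42, adjusted p = 0.00357). Of the mitochondrial genes 6 were higher, led by mt-Nd2 with 2573.4, 1699.9 and 1936.0 CPM in CD8 against 2197.4, 1420.7 and 1669.7 CPM in CD4 T cells (0.28, adjusted p = 1.18e-12), then mt-Nd1 (0.24), mt-Nd3 (0.21) and mt-Nd4 (0.19). Without the library block 0 nuclear and 0 mitochondrial genes were called, where 2.71% of all genes were higher and 2.04% lower. DESeq2 called 2 nuclear genes higher (3.72% of all genes), leaving out the citrate buffer library gave 3 (5.44%), and leaving out Free OVA gave 5 (6.94%).

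Between feedings, nuclear respiratory chain levels in B cells were a little lower after both ovalbumin feedings than after citrate buffer. The log2 ratio of the sum was -0.19 for LysoPS-OVA and -0.20 for Free OVA over citrate buffer, and these ratios share the citrate buffer library. A gene was counted as measured at 50 CPM and 30 UMIs in the higher library, and 10 CPM was added to both levels before a log2 ratio. For LysoPS-OVA 68 of 72 measured nuclear genes were lower and 4 higher (median -0.19, all genes -0.03), and for Free OVA 66 were lower and 6 higher (median -0.21, all genes -0.07). No nuclear gene passed 1.5-fold in B cells, where 3.24% and 2.52% of measured genes did either way. In non-cycling B cells, which held no cycling marker, the sum differed less, by -0.06 and -0.11. They were 4787 of 5259 B barcodes in LysoPS-OVA, 4591 of 5120 in Free OVA and 4082 of 5507 in citrate buffer. Cycling B barcodes, with 3 or more cycling markers, made up 1.217%, 2.266% and 4.649% in the same order. B barcodes with some but under 3 cycling markers were in neither group.

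The proton channel ring subunit Atp5g1 was among the lowest by both ratios in B cells, at 154.5 CPM in LysoPS-OVA and 146.3 CPM in Free OVA, against 204.0 CPM in citrate buffer (log2 ratios -0.38 and -0.45). Ndufc1 of complex I stood at 78.55 and 88.95 CPM against 109.7 CPM (-0.43 and -0.27), and Uqcrq of complex III at 168.0 and 170.5 CPM against 220.3 CPM (-0.37 and -0.35). Ndufa13 (149.8 and 130.4 CPM against 182.1 CPM) and Ndufs6 (80.51 and 68.5 CPM against 96.53 CPM) had the other low ratios in Free OVA, -0.45 and -0.44. The highest ratios were small: Ndufa3 had 106.3 and 105.6 CPM against 97.04 CPM (0.12 and 0.11) and Sdha 88.64 and 80.37 CPM against 77.35 CPM (0.18 and 0.05).

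In T and dendritic cells the nuclear differences lay nearer the shift of all genes. In CD4 T cells the medians were -0.07 for LysoPS-OVA over citrate buffer (51 of 72 lower, all genes -0.13) and -0.11 for Free OVA (57 lower, all genes -0.10). The sum in CD4 T cells was -0.06 for LysoPS-OVA over citrate buffer and turned to 0.06 when scaled by UMIs that are neither mitochondrial nor ribosomal. In CD8 T cells they were -0.12 (62 of 74 lower, all genes -0.11) and -0.18 (all genes -0.11), and in migratory dendritic cells -0.12 (60 of 76 lower, all genes -0.07) and -0.16 (all genes -0.24). The complex I subunit Ndufa12 in CD8 T cells, at 34.78 CPM (116 UMIs) in LysoPS-OVA against 59.49 CPM (201 UMIs) in citrate buffer, was the single nuclear gene past 1.5-fold in these gates (ratio 0.5845, interval 0.461 to 0.7383), where 1.83% of measured genes passed it in CD4 T, 2.87% in CD8 T and 12.4% in migratory dendritic cells; Free OVA had 54.65 CPM. For Free OVA over citrate buffer no nuclear gene passed, against 1.96%, 2.68% and 22.2% of measured genes. Ndufa3 and Atp5md, a small ATP synthase subunit, had the highest ratios over citrate buffer among measured nuclear genes in CD4 T cells. Ndufa3 stood at 138.2 and 130.5 CPM against 110.5 CPM (log2 ratios 0.3 and 0.22). Atp5md stood at 166.3 and 165.2 CPM against 142.3 CPM (0.21 and 0.2). In migratory dendritic cells Ndufa13 stood at 197.3 and 190.1 CPM against 270.0 CPM, Atp5b, the catalytic subunit of ATP synthase, at 255.4 and 231.8 CPM against 333.0 CPM, and Ndufa1 at 225.2 and 240.1 CPM against 196.9 CPM.

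Mitochondrial transcripts separated the 2 ovalbumin feedings in lymphocytes. Their sum was lower in Free OVA than in citrate buffer by log2 ratios of -0.33 in B, -0.28 in CD4 T, -0.35 in CD8 T and -0.33 in migratory dendritic cells. In LysoPS-OVA it was higher than in citrate buffer in B (0.09), CD4 T (0.26) and CD8 T cells (0.22), and lower in migratory dendritic cells (-0.15, or -0.01 with no limit on mitochondrial UMIs). LysoPS-OVA over Free OVA gave 0.41 in B, 0.54 in CD4 T, 0.57 in CD8 T and 0.18 in migratory dendritic cells. In migratory dendritic barcodes neither Malat1-low nor ribosome-low, 60, 151 and 156 per library, the sum was 2.935% of UMIs in LysoPS-OVA and 3.431% in Free OVA, against 3.495% in citrate buffer. There LysoPS-OVA over Free OVA turned to -0.23, and Free OVA over citrate buffer was -0.03, the smallest of its values over the settings tried. Of the measured mitochondrial genes, 12 of 12 were higher in LysoPS-OVA than in citrate buffer in CD4 T cells, 11 of 12 in CD8 T and in B cells, and 2 of 11 in migratory dendritic cells. In Free OVA, 9 of 13 were lower than in citrate buffer in B cells, and 9 of 11 in each of CD4 T, CD8 T and migratory dendritic cells. The median log2 ratio of all measured genes, given above with the nuclear genes, was negative in each of these comparisons over citrate buffer. It lay furthest down for Free OVA in migratory dendritic cells. The part of that shift in the lower mitochondrial counts there was not tested.

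**Figure D4:**
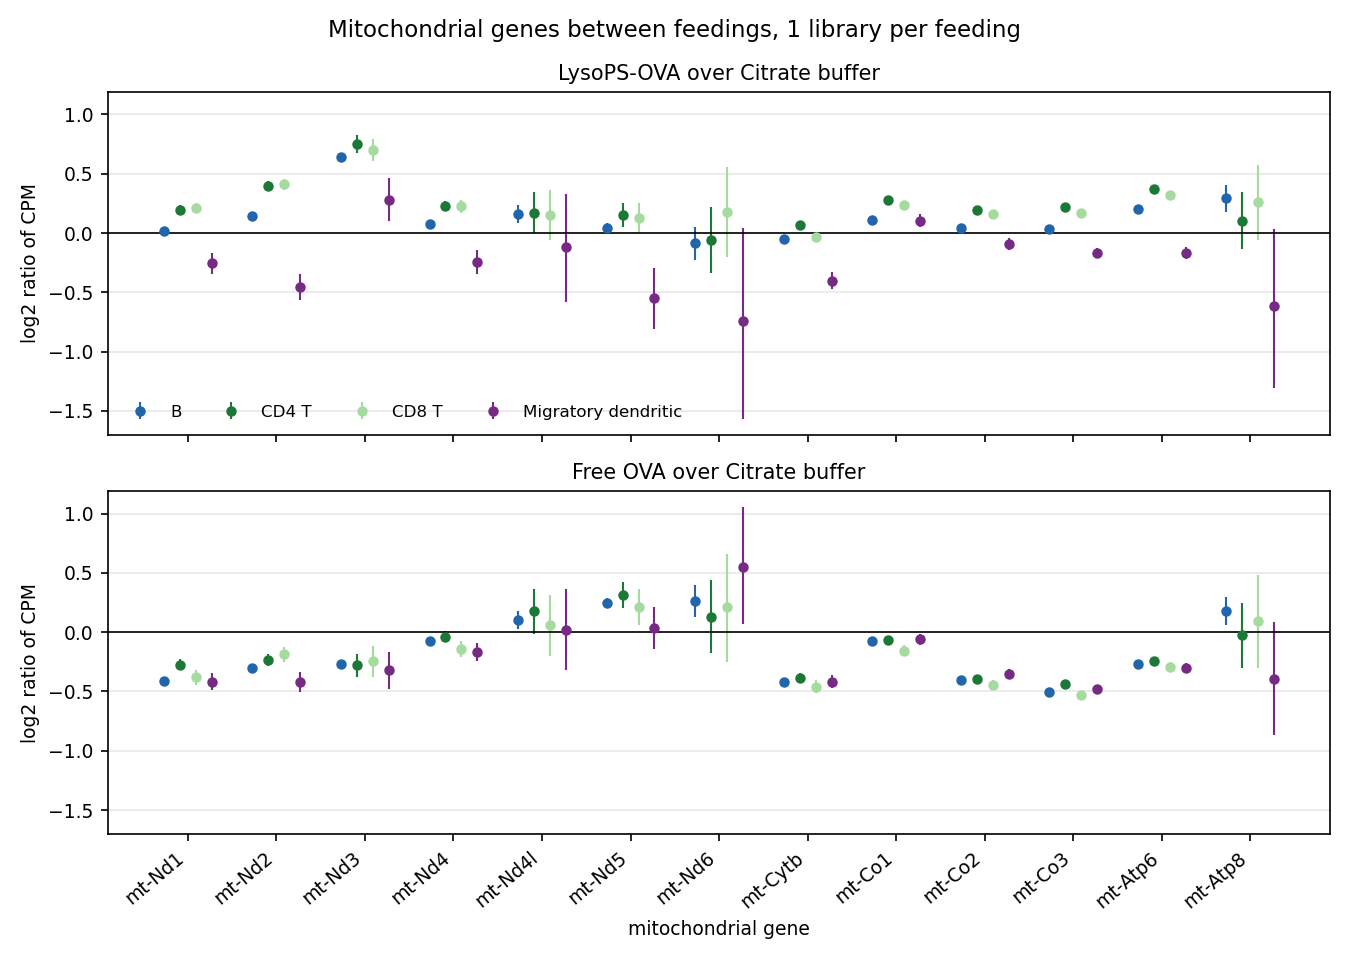
Log2 ratios of the 13 mitochondrial genes between feedings in B, CD4 T, CD8 T and migratory dendritic cells, with 95% counting intervals. mt-Nd3 stands highest for LysoPS-OVA over citrate buffer in the lymphocytes, and mt-Co3 and mt-Cytb are low for Free OVA over citrate buffer in all 4 gates.

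mt-Nd3, a complex I subunit at chrM:9459-9806 on the plus strand of mm10, had the widest difference in lymphocytes. In B cells it stood at 958.9 CPM in LysoPS-OVA and 508.8 CPM in Free OVA, against 614.1 CPM in citrate buffer. LysoPS-OVA was 1.562 times citrate buffer (interval 1.526 to 1.598) and 1.884 times Free OVA. In CD4 T cells it had 675.8 and 331.0 CPM against 401.9 CPM (1.682, interval 1.594 to 1.775), in CD8 T cells 739.3 and 383.1 CPM against 454.0 CPM (1.628), and in migratory dendritic cells 359.9 and 236.5 CPM against 295.8 CPM (1.216, interval 1.073 to 1.379). Of the mitochondrial genes measured, it alone passed 1.5-fold over citrate buffer in the B, CD4 T and CD8 T gates, and none passed in migratory dendritic cells. As a share of mitochondrial UMIs it made up 2.294% in LysoPS-OVA, 1.621% in Free OVA and 1.559% in citrate buffer in B cells, and 1.899%, 1.349% and 1.348% in CD4 T cells. Restricted to barcodes neither Malat1-low nor ribosome-low, its log2 ratio of LysoPS-OVA over citrate buffer was 0.67 in B, 0.80 in CD4 T, 0.78 in CD8 T and 0.55 in migratory dendritic cells. Each feeding is a single library, so feeding and library cannot be told apart.

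In Free OVA the mitochondrial genes did not move as a block. The complex IV subunit mt-Co3 was at 0.7066 of its citrate buffer level in B, 0.7395 in CD4 T, 0.6917 in CD8 T and 0.7161 in migratory dendritic cells. The complex III subunit mt-Cytb was at 0.746, 0.7658, 0.7269 and 0.7493. mt-Co1, the catalytic subunit of complex IV, was near its citrate buffer level (0.9481, 0.9558, 0.8978 and 0.9595), as was mt-Nd4 (0.9524, 0.9749, 0.9067 and 0.8918). mt-Nd5 stood above it in lymphocytes (1.186 in B, 1.241 in CD4 T and 1.158 in CD8 T cells) and near it in migratory dendritic cells (1.025). mt-Nd6, the single gene of the other strand, was at 1.199 in B cells, on 1150 UMIs in Free OVA and 774 in citrate buffer (interval 1.094 to 1.315); in the other gates it lay under 50 CPM in both libraries and was not counted as measured. In LysoPS-OVA over citrate buffer, mt-Nd2 was at 1.316 in CD4 T cells and at 0.7288 in migratory dendritic cells, and in migratory dendritic cells mt-Nd5 was at 0.6821 and mt-Cytb at 0.7566. The Free OVA library also had the most UMIs on Gm42418 and AY036118, genes that overlap ribosomal RNA, at 6.433% against 1.637% in LysoPS-OVA and 2.61% in citrate buffer, and the most Malat1-low barcodes. Their part in these ratios was not tested; with both genes out of the total, the mitochondrial ratio of Free OVA over citrate buffer was -0.29 in B and -0.25 in CD4 T cells.

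Complex IV has isoforms whose use depends on tissue, and the lymph node carried the common ones. Over all kept barcodes Cox4i1 had 563.0 CPM in LysoPS-OVA, 591.3 in Free OVA and 609.5 in citrate buffer, and its partner Cox4i2 0.063, 0.118 and 0.163 CPM. Cox7a1 (0.707, 0.842 and 1.3 CPM) and the testis-type Cox6b2 (1.326, 1.591 and 2.08 CPM) were also near 0. Cox7b2 had 2, 2 and 0 UMIs, Cox8b 2, 1 and 1, Ndufa4l2 3, 0 and 3, and Cox8c 0 in every library, which allows up to 0.03789, 0.03945 and 0.0325 CPM (3 UMIs).

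The exception was Cox6a2 (chr7:128205435-128206387, minus strand, mm10), the heart and muscle form of a complex IV subunit. Plasmacytoid dendritic barcodes, gated here on 2 markers because 3 markers left 1, 7 and 8, numbered 11 in LysoPS-OVA, 13 in Free OVA and 42 in citrate buffer. In them Cox6a2 stood at 454.0, 688.1 and 154.2 CPM, from 7, 15 and 13 UMIs, against 0.7706, 0.4078 and 0.9108 CPM in all other kept barcodes. A Cox6a2 UMI was seen in 27.27%, 38.46% and 16.67% of plasmacytoid barcodes and in 0.1155%, 0.08148% and 0.1483% of the others, at median depths of 1131, 1737 and 1628 UMIs in plasmacytoid barcodes and 4249, 1871.5 and 2835 in the others. B cells, which should lack it, had 0.174, 0.137 and 0.3395 CPM. The common form Cox6a1 was present beside it at 324.3, 183.5 and 106.7 CPM, against 142.9, 158.0 and 150.3 CPM in the others. Read from the gene's side, the plasmacytoid marker Siglech, itself 1 of the gate's markers, had a UMI in 47.83%, 37.5% and 43.48% of the 23, 24 and 46 barcodes with Cox6a2, and in 0.2428%, 0.2832% and 0.806% of those without. Among the 8, 4 and 11 barcodes with at least 3 Cox6a2 UMIs it was 87.5%, 100% and 81.82%. These rest on few barcodes, and no order between feedings is read from them.

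**Figure D5:**
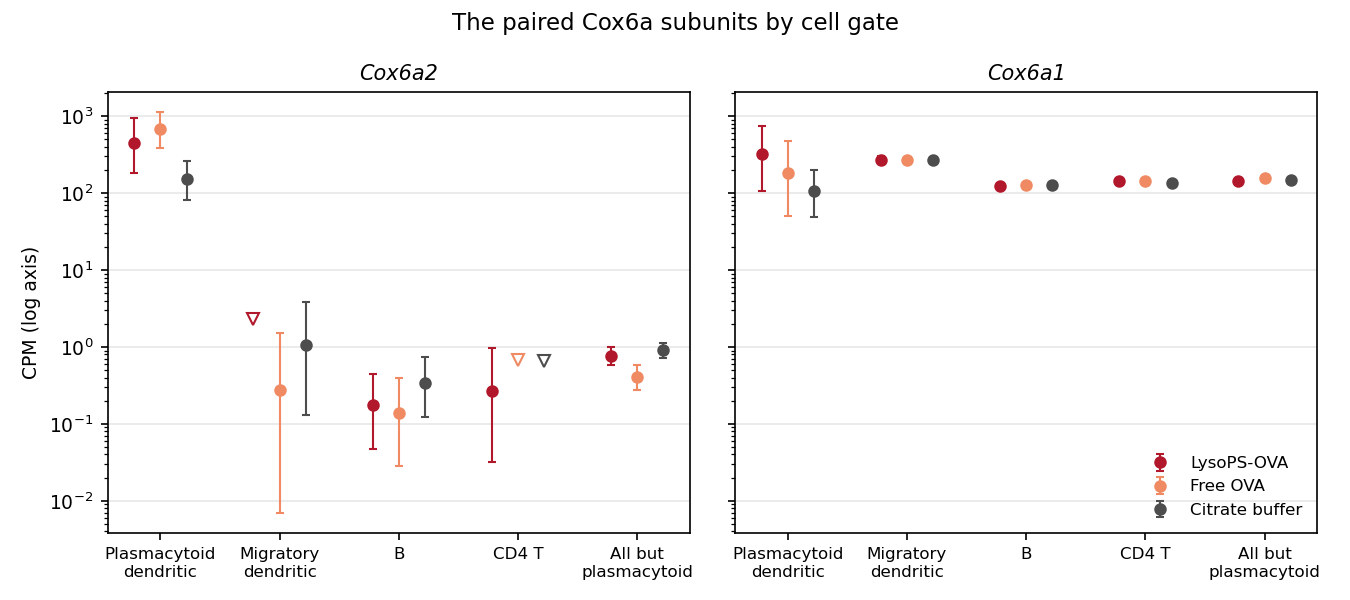
Level (CPM, log scale) of the complex IV isoforms Cox6a2 and Cox6a1 by cell type gate and library, with exact Poisson 95% intervals. Open triangles mark the limit that 0 UMIs allow (3 UMIs). Cox6a2 lies between 154.2 and 688.1 CPM in the plasmacytoid gate and under 1 CPM in B cells.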

How the data were processed

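The values used are the raw UMI counts per gene and barcode that the authors deposited, made with Cell Ranger 7.2.0 on mm10, per the submitters' processing notes. The annotation version, the intron and strand settings and the treatment of reads shared with pseudogene copies are not given in the sources used here. Each count is a 3' tag, so levels are not scaled to gene length.

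Kept barcodes had 300 genes or more and no more than 10% of UMIs on mitochondrial genes. Cell types were gated by 3 distinct markers of their own list and at most 1 of another lineage, with the exceptions given above for plasma, B, plasmacytoid and myeloid gates. Cycling B cells held 3 cycling markers or more and non-cycling B cells none. Malat1-low means under 0.5% Malat1 UMIs, and ribosome-low under 10% ribosomal protein UMIs. Scrublet (scanpy 1.11.5), run with a rate of 0.8% per 1000 barcodes, called 7.74%, 7.15% and 15.56% doublets in LysoPS-OVA, Free OVA and citrate buffer. They stayed in, and leaving them out was an alternative. Of the barcode sequences shared between libraries, 129, 141 and 118 were among the kept ones (LysoPS-OVA and citrate buffer, Free OVA and citrate buffer, LysoPS-OVA and Free OVA).

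UMIs were summed per library and gate and scaled to CPM. Between feedings (1 library each) folds have 95% conditional binomial intervals, levels exact Poisson intervals and shares exact Clopper-Pearson intervals, all of counting error only. Between cell types, edgeR 4.0.16 (R 4.3.3) quasi-likelihood tests with TMM scaling and the library as a block were fitted on all genes, with Benjamini-Hochberg adjustment. The code was tested on simulated data. DESeq2 1.42.0 was an alternative. Figures were drawn with matplotlib 3.10.9, sums made with pandas 2.3.3 and numpy 2.4.6, and intervals with scipy 1.17.1, all in Python 3.11.15. Gene positions are from GENCODE on GRCm38 (mm10), and promoters from RefSeq on GRCm38.p6, where the start nearest to GENCODE's was taken for a gene with several.

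The genes, marker lists and comparisons were chosen with earlier results of these data known. Named by rule were the 13 mitochondrial genes, the tissue isoforms of complex IV with their partners, the top nuclear gene of each complex, the 3 highest and 3 lowest nuclear genes per feeding comparison, and the 4 highest and 4 lowest called genes per cell type comparison. Of these the text gives a selection, and the strata by Malat1 and ribosomal content were read in B cells.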

Additional observations from a re-analysis of the deposited data

Results flagged for a closer look

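The mitochondrial genes differed in direction between cell types under the same comparison. LysoPS-OVA over citrate buffer gave log2 ratios of the summed level of 0.26 in CD4 T, 0.22 in CD8 T and 0.09 in B cells, and -0.15 in migratory dendritic cells. With no limit on mitochondrial UMIs the last was -0.01. The difference between the cell types was not tested, since each feeding is 1 library.

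Barcodes left out for over 10% mitochondrial UMIs hold B cells. Among barcodes that pass the B gate with no such limit, 17.25% in LysoPS-OVA (interval 16.32% to 18.2%) and 13.83% in Free OVA (12.97% to 14.74%) lay over the limit, against 10.86% in citrate buffer (10.1% to 11.66%). With them the mitochondrial log2 ratio in B cells was 0.14 for LysoPS-OVA and -0.25 for Free OVA over citrate buffer.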

How the results depend on the processing

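Log2 ratios of list sums between feedings moved by more than counting error under most settings. Those over citrate buffer are given as LysoPS-OVA, then Free OVA. Nuclear genes in B cells (-0.19 and -0.20) gave -0.20 for LysoPS-OVA at a limit of 20% mitochondrial UMIs, -0.21 with no limit, -0.17 scaled by UMIs neither mitochondrial nor ribosomal and -0.21 with a gate on 2 markers; they gave -0.13 and -0.24 in barcodes neither Malat1-low nor ribosome-low, -0.16 and -0.11 as means of per-barcode shares, and -0.20 and -0.16 without Gm42418 and AY036118. Mitochondrial genes in B cells (0.09 and -0.33) gave -0.30 for Free OVA at 20%, 0.14 and -0.25 with no limit, 0.10 for LysoPS-OVA scaled by the other UMIs, 0.14 and -0.30 in barcodes low in neither, 0.04 and -0.36 as per-barcode means, 0.10 and -0.31 without Scrublet doublets, -0.35 for Free OVA on 2 markers, and 0.07 and -0.29 without Gm42418 and AY036118. Nuclear genes in CD4 T cells (-0.06 and -0.11) gave 0.06, a reversal, and -0.06 scaled by the other UMIs, -0.09 and -0.17 in barcodes low in neither, -0.03 and -0.08 as per-barcode means, -0.03 and -0.09 on 2 markers, and -0.09 for Free OVA without Gm42418 and AY036118. Mitochondrial genes in CD4 T cells (0.26 and -0.28) gave 0.22 and -0.33 at 20%, 0.21 and -0.34 with no limit, 0.37 and -0.23 scaled by the other UMIs, 0.32 and -0.21 in barcodes low in neither, 0.21 for LysoPS-OVA as a per-barcode mean, -0.27 for Free OVA without Scrublet doublets, 0.22 and -0.30 on 2 markers, and 0.24 and -0.25 without Gm42418 and AY036118. LysoPS-OVA over Free OVA for mitochondrial genes (0.41 in B and 0.54 in CD4 T cells) gave 0.39 and 0.55 at 20%, 0.38 and 0.55 with no limit, 0.42 and 0.60 scaled by the other UMIs, 0.45 in B barcodes low in neither, 0.40 and 0.50 as per-barcode means, 0.44 and 0.52 on 2 markers, and 0.36 and 0.50 without Gm42418 and AY036118; in migratory dendritic cells (0.18) it reversed to -0.23 in barcodes low in neither and was 0.03 to 0.23 under the other settings. With a lower fold threshold 10 and 19 respiratory chain genes passed in B and 4 and 11 in CD4 T cells. Past 1.5-fold it was 1 and 0 in each. The 1 was mt-Nd3, so mitochondrial genes are counted here with the nuclear ones. Of all measured genes, 3.24% and 2.52% passed 1.5-fold in B and 1.83% and 1.96% in CD4 T cells. No such share is given for the lower threshold, so whether its counts exceed those of all genes was not tested. The causes of the moves between settings were not tested.

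Between cell types, counts of nuclear genes called moved most in Malat1-low barcodes. There 7 rose and 1 fell in plasma against B, 21 rose and 24 fell in migratory dendritic against B, 0 and 0 in CD4 T against B, 0 and 0 in CD8 against CD4 T, and 2 fell in cycling against non-cycling B. In the same barcodes 7 mitochondrial genes fell in plasma (6.58% of all genes lower) and 1 rose in migratory dendritic (24.9% higher). In CD4 T 0 fell (4% lower), in CD8 T 0 rose (0.279% higher) and in cycling B 10 fell (22.8% lower). In barcodes low in neither, migratory dendritic had 37 nuclear genes higher and 0 mitochondrial lower (11.1% of all genes higher, 10.5% lower). CD8 T had 6 nuclear higher and 2 lower there (8.38% of all genes higher, 7.14% lower). Scaled by total UMIs, 1 nuclear and 9 mitochondrial genes fell in plasma, where 24% of all genes were lower. In migratory dendritic 8 and 13 fell, where 52.6% of all genes were lower. In cycling B 13 mitochondrial fell (38.7% of all genes lower), and in CD8 T 4 nuclear rose (7.07% of all genes higher). DESeq2 called 1 mitochondrial gene lower in plasma (12.1% of all genes lower) and 1 higher in migratory dendritic (27.5% higher). It called 30 nuclear higher in CD4 T (18.1% higher), and 2 nuclear higher and 0 lower in CD8 T (3.72% higher, 2.42% lower). DESeq2 size factors gave 4 mitochondrial lower in cycling B (26.8% lower). With no filter on low counts 6 mitochondrial fell in plasma (9.53% of all genes lower) and 10 in cycling B (14.3% lower). In CD8 T 6 nuclear rose (3.95% higher). With no limit on mitochondrial UMIs 0 mitochondrial fell in plasma (17.5% of all genes lower) and 11 rose in CD8 T (8.65% higher). Without Scrublet doublets 1 mitochondrial rose in migratory dendritic (30.7% of all genes higher) and 4 fell in cycling B (27.8% lower).

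The library is the block in these fits. With no replicate block, 4 mitochondrial genes fell in CD4 T (21.5% of all genes lower) and 0 in cycling B (24.7% lower). In CD8 T 0 nuclear rose or fell and 0 mitochondrial rose (2.71% of all genes higher, 2.04% lower). No paired analysis was possible between feedings because each is 1 library. Leaving out each library gave 0 to 1 nuclear lower and 0 to 3 mitochondrial lower in plasma, 1 to 9 mitochondrial lower and 0 to 1 higher in migratory dendritic, 19 to 60 nuclear higher and 3 to 10 mitochondrial lower in CD4 T, 3 to 11 nuclear higher, 0 to 1 lower and 4 to 8 mitochondrial higher in CD8 T, and 0 to 4 mitochondrial lower in cycling B. Malat1-low only, Scrublet doublets out between cell types, total UMIs with no TMM factor and the total without Gm42418 and AY036118 were chosen after seeing the data. Plasma, plasmacytoid and macrophage results are limited by their few barcodes.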

Other observations

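Mitochondrial ribosomal protein and glycolysis genes in the whole B gate lay lower after both ovalbumin feedings than after citrate buffer, as the nuclear respiratory chain did. Of 78 mitochondrial ribosomal protein genes, 25 were measured, and all 25 were lower both in LysoPS-OVA (median log2 ratio -0.19) and in Free OVA (-0.25), where all genes had medians of -0.03 and -0.07. Of 13 glycolysis genes, 7 were measured and all 7 were lower (medians -0.39 and -0.50). Citric acid cycle genes had medians of -0.08 and -0.12, nearer those of all genes. In cycling B cells glycolysis genes took 0.3491% of UMIs in LysoPS-OVA, 0.3018% in Free OVA and 0.3543% in citrate buffer, against 0.08919%, 0.08096% and 0.09615% in non-cycling B cells. Cycling barcodes made up 1.217%, 2.266% and 4.649% of the B gate in LysoPS-OVA, Free OVA and citrate buffer. Their part in the ratios was not tested, and no gene ratios within non-cycling B cells are given for these lists. The ratios share the citrate buffer library and were not tested.

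Small gates gave other nuclear ratios. In plasma cells the nuclear sum of LysoPS-OVA over citrate buffer had a log2 ratio of 0.25 (interval 0.21 to 0.30), on 47 and 63 barcodes, and Free OVA over citrate buffer -0.01. In cycling B cells the ratios were 0.10 and -0.04, and in germinal centre B cells 0.03 and -0.07. In migratory dendritic against B cells, 6 of 10 genes for expression of mitochondrial DNA fell and 1 rose, and 6 of 14 citric acid cycle genes fell and 5 rose, where 32.6% of all genes were lower and 29.8% higher.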
